A study of Mus musculus with 12 samples.

Results

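The enzymes of oxidative phosphorylation are built in the inner mitochondrial membrane from a few subunits encoded in mitochondrial DNA and many encoded in the nucleus. Nuclear-encoded subunits of complexes I, III, IV and V were followed here as 73 protein-coding genes of the 12483 in the deposited count table. They were chosen by symbol: Nduf genes of the A, B, C, S and V series (complex I, 36 genes), Uqcr genes (complex III, 8), Cox4 to Cox8 genes (complex IV, 12) and Atp5 genes (complex V, 17). Subunit genes with other symbols, such as Ndufab1, Cyc1 and Usmg5, were measured but fell outside this choice, so the complexes are not covered in full. The rule used names and biotypes, and 3 rows with matching symbols (Uqcrh-ps1, Atp5k-ps2 and Ndufs6b) were processed pseudogenes and stayed out. Of the members, 72 passed the filter on low counts; Atp5l, with between 0.290 and 1.02 CPM (counts relative to the TMM-scaled size of each library) in the 12 libraries, did not and was not tested.

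Complex I (NADH dehydrogenase) passes electrons from NADH to ubiquinone, complex III passes them from ubiquinol to cytochrome c, and complex IV (cytochrome c oxidase) hands them to oxygen, while complex V (ATP synthase) uses the proton gradient that the pumps build. In complex I the nuclear genome encodes both catalytic core and accessory subunits, whereas in complex IV the catalytic subunits are mitochondrially encoded and the nuclear subunits surround them. In macrophages, inflammatory stimulation is known to move energy metabolism toward glycolysis, and complex I is a source of oxygen radicals.

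RNA came from RAW264.7 cells, a mouse macrophage line, grown from single-cell clones that had passed through CRISPR editing around an element called NRE1. The WT clones (1, 2 and 3) and the clones labelled KO (1A, 1B and 2) each gave 1 library in media and 1 after LPS, a bacterial cell wall product, at 10 ng/mL with interferon gamma (IFN-gamma) at 50 ng/mL for 6 h, so the 4 groups held 3 libraries each. The labels do not expand NRE1 or say how KO 1A and 1B are related, and the deletion could not be checked in the counts because no gene of that name is listed. Total counts ran from 10624591 to 14388590 per library. All 10 macrophage markers were measured, with summed levels of 5020 to 20500 CPM, and of 3 neutrophil markers S100a8 alone was listed, at up to 2.84 CPM; the T or NK cell, B cell, fibroblast, epithelial and erythroid markers were not listed. In such bulk RNA, fewer cells and less RNA per cell cannot be told apart.

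Between 0.85% and 1.11% of a library's counts fell on the members, and this share was lower after stimulation in each of the 6 clones. In WT clones 1, 2 and 3 it went from 0.952%, 0.978% and 1.11% in media to 0.896%, 0.921% and 1.01%. In KO clones 1A, 1B and 2 it went from 1.07%, 1.04% and 0.969% to 0.989%, 0.969% and 0.85%. The ranges of the stimulated and unstimulated libraries overlap, because clones differ, but within a clone the order was the same throughout. This raw share is the base of scaling by library totals. TMM scaling, which assumes that most genes do not change, gave factors of 1.1 to 1.17 in media and 0.856 to 0.918 after stimulation, and so placed the same genes higher in the stimulated libraries. The median fold change of all 12231 genes tested was -0.01 (log2) under TMM and -0.37 under library totals in WT clones, and -0.01 and -0.39 in KO clones. Directions below are under TMM unless library totals are named; a difference from the median of all genes hardly moves with the scaling.

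Under TMM scaling LPS/IFN-gamma raised more subunit genes than it lowered. In WT clones 21 of the 72 were called higher and 3 lower (edgeR quasi-likelihood test, Benjamini-Hochberg adjusted p under 0.05 over all genes), against a background of 23.8% of all genes higher and 23.6% lower (47.4% in either direction). The members' shares were 29.2% and 4.17%, so the higher share was near the background and the lower share was below it. Their median log2 fold change was 0.21, 0.22 above that of all genes, and their quartiles were 0.06 and 0.35, against -0.54 and 0.45 for all genes. In KO clones 21 were again called higher and 3 lower, against 26.7% and 27.6% of all genes (54.3% in either direction), with a median of 0.18, 0.20 above all genes. The same 18 genes were called higher in both genotypes, 85.7% of either list, and Ndufs7 was the only gene called lower in both. The overlap over all genes is not given here, so this share is not to be read as particular to the members. In the difference between the responses 0% of all genes were called. No member was called in opposite directions.

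Under library totals the picture by sign was different. In WT clones 1 member was called higher and 18 lower, with 13.0% and 42.8% of all genes called in those directions (55.8% in either), and in KO clones 2 were higher and 23 lower, against 14.7% and 45.1% (59.8% in either). The members' median was -0.15 in WT and -0.19 in KO clones, still 0.22 and 0.20 above all genes. Cox7a2 was the only member called higher on both scales in both genotypes, and 17 members were called lower under library totals in both genotypes. For this overlap too the value over all genes is not given. With each clone as a replicate block, which pairs a clone's libraries, TMM scaling called 34 higher and 3 lower in WT clones (29.8% and 31.4% of all genes, 61.2% in either direction) and 30 higher and 6 lower in KO clones (32.1% and 34.0%, 66.1% in either). With the members' own totals as library size, which sets their sum equal in all libraries, 2 were higher and 8 lower in WT clones (14.1% and 34.7% of all genes, 48.7% in either direction) and 4 higher and 15 lower in KO clones (16.9% and 36.6%, 53.6% in either). Under TMM without the block the WT count of higher genes was 8 without WT clone 2, and the KO count was 9 without clone 1A, 8 without 1B and 11 with 1A and 1B summed into 1. These fits hold fewer libraries, and the share of all genes called in them is not given here. Loss of power over all genes thus cannot be told from a change in the members.

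**Figure D1:**
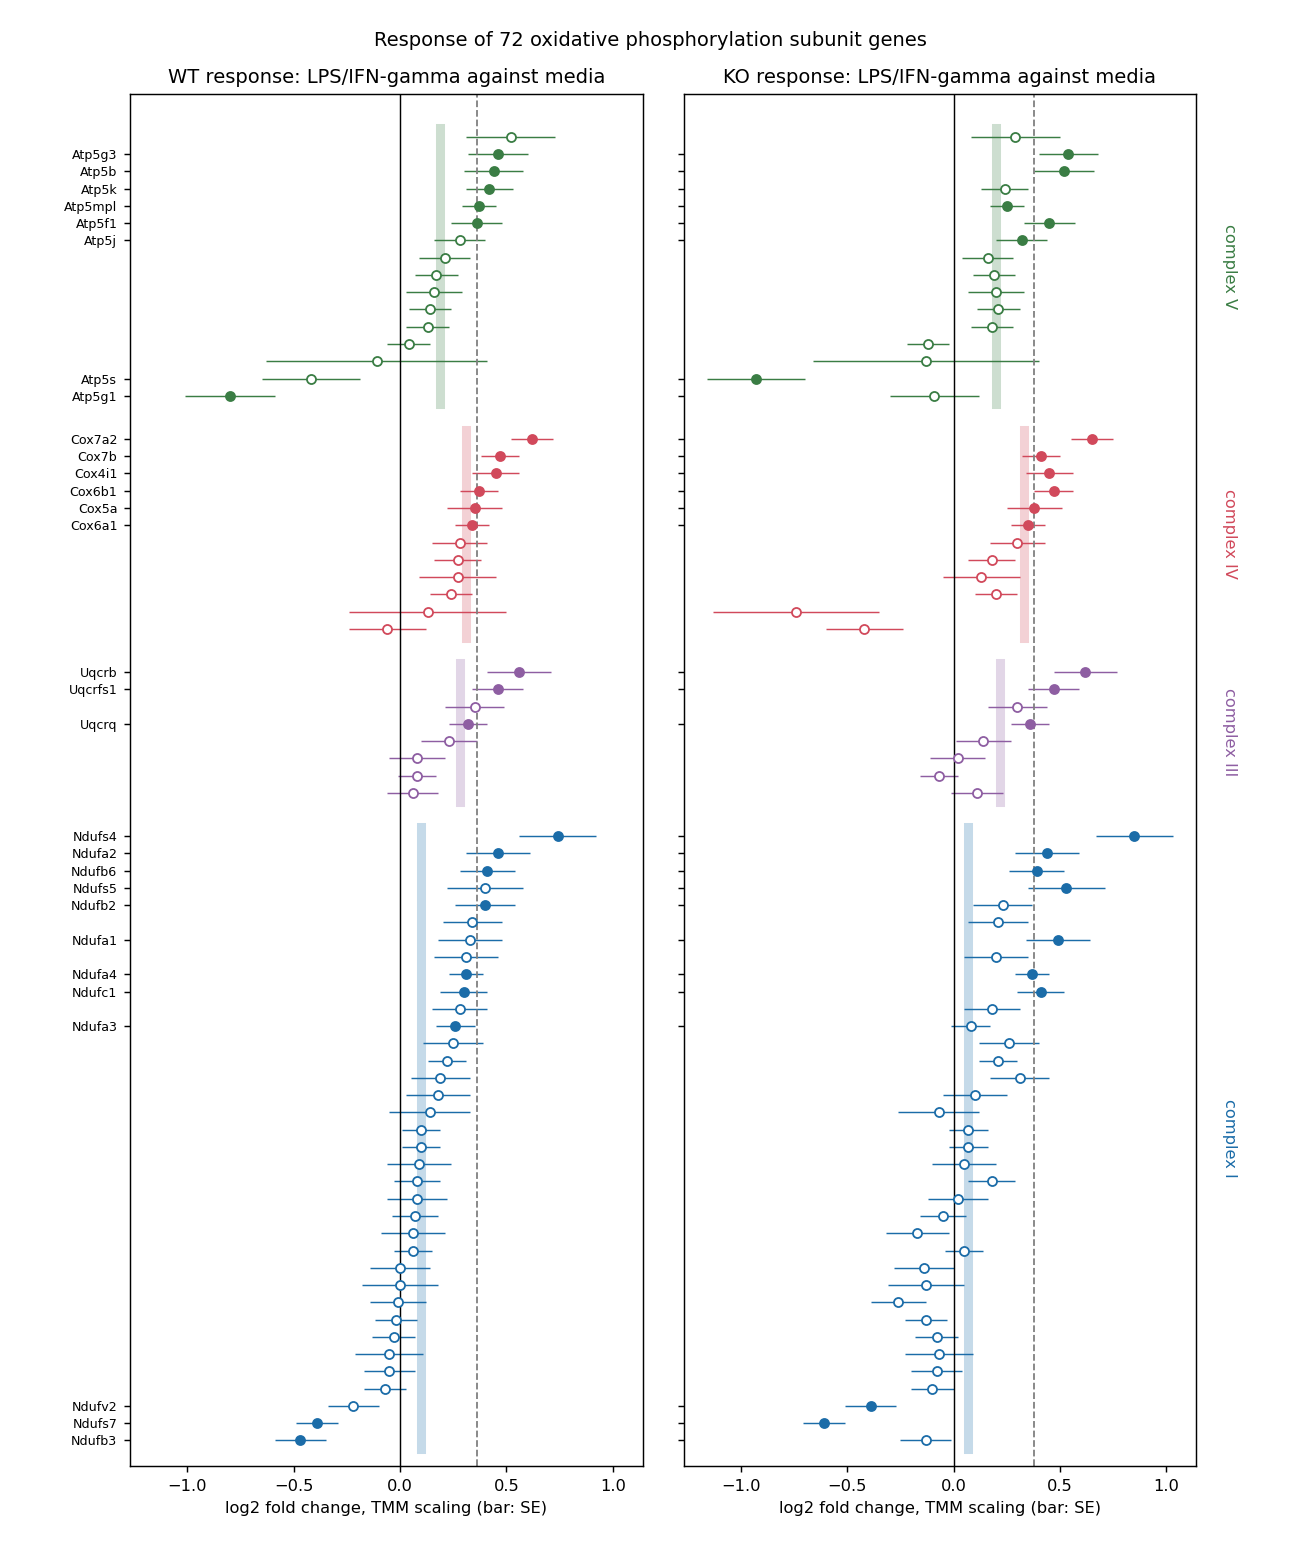
Log2 fold change (x axis, LPS/IFN-gamma against media, TMM scaling) of the 72 tested subunit genes (y axis), grouped by complex and ordered by the WT value, with names for genes called in either genotype; filled points were called at adjusted p under 0.05, bars are SE, and wide bands mark each complex's median. The dashed line marks the shift between scalings, 0.36 in WT and 0.38 in KO clones, so points right of it are above 0 under library totals as well; the complex I band (0.10 and 0.07) lies left of the complex IV band (0.31 and 0.33) in both panels.

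The promoters of these genes are known for binding sites of the factors NRF1, GABPA (an ETS-family factor) and YY1, so their windows (250 bases before to 50 after the start, RefSeq, build GRCm38.p6) were searched for 3 core sequences on both strands. Of the 73 members 60 had a window, and each entered with the window nearest to its annotated gene start. The shares for all windows are over every window listed, also where a gene has several. The part of this unlike choice in the shares was not tested. The NRF1 core GCGCATG was in 20.0% of the members' windows and in 3.91% of all 32851 windows of the table. The ETS core CCGGAAG was in 21.7% against 8.86%, and the YY1 core AAGATGG in 15% against 6.34%. The members' windows were also richer in G and C (median 57.0% against 52.7%), and the part of base composition in these shares was not tested. By complex, the NRF1 core was in 5 of 32 windows of complex I, 2 of 5 of complex III, 2 of 10 of complex IV and 3 of 13 of complex V. Any of the cores was found in 5 of 12 windows of genes called higher in both genotypes (41.7%) and in 23 of the 48 other windows (47.9%); this difference was not tested. The 250 bases before the start are shown for 4 genes called higher in both genotypes, 3 with a core and Cox7a2 with none, chosen after the windows had been searched. Capitals mark the cores on either strand (CTTCCGG is the ETS core read from the other strand), and in Cox6a1 the NRF1 core lies on both strands at once in the run GCGCATGCGC.
Cox6a1, subunit 6a of complex IV, minus strand, chr5:115348959-115349208: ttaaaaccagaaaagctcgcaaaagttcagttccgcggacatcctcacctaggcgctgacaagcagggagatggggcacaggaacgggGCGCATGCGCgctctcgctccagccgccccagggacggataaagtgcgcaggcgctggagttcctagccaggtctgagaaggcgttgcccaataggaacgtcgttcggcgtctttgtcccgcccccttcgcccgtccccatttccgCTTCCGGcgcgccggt
Ndufb6, an accessory subunit of complex I, minus strand, chr4:40279422-40279671: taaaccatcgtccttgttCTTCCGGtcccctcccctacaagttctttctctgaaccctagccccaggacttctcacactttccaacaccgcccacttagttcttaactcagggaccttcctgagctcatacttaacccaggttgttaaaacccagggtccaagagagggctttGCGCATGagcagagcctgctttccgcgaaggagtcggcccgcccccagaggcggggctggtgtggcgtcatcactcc
Cox6b1, subunit 6b of complex IV, minus strand, chr7:30626115-30626364: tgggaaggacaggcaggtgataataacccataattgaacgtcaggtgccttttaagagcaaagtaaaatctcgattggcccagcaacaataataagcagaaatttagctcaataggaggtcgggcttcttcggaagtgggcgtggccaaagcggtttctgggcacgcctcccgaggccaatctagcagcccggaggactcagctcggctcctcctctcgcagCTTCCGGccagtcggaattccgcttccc
Cox7a2, subunit 7a of complex IV, minus strand, chr9:79759854-79760103: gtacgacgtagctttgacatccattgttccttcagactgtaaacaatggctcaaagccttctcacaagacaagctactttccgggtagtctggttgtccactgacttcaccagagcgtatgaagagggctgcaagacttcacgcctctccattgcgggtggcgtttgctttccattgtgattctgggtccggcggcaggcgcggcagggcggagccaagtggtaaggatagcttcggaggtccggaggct

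Complex I had the lowest median of the 4 complexes on both scales. Under TMM, in WT clones 7 of its 36 genes were called higher and 2 lower, with a median of 0.10, 0.11 above all genes, and in KO clones the counts were also 7 and 2, with a median of 0.07, 0.08 above all genes. Under TMM 23.8% and 23.6% of all genes were called higher and lower in WT and 26.7% and 27.6% in KO clones. Under library totals 0 were higher and 14 lower in WT (median -0.26) and 1 higher and 17 lower in KO clones (median -0.31). On that scale 13.0% and 42.8% of all genes were called higher and lower in WT and 14.7% and 45.1% in KO clones. The lower calls of complex I were near that background, which also stands for complexes III, IV and V below. The 7 nuclear-encoded core subunits, Ndufs7 and Ndufv2 among them, which form the path of electrons through the enzyme, had TMM fold changes of -0.39 to 0.10 in WT and -0.61 to 0.07 in KO clones. None was called higher under TMM in either genotype, and all 7 were called lower under library totals in both. The 29 accessory genes had medians of 0.19 and 0.18, with 7 higher and 1 lower in WT and 7 higher and 0 lower in KO clones. Both lower calls of the KO clones were thus core subunits. The division into core and accessory was looked at after the values were known, and no test was made of it.

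Ndufs4, an accessory subunit needed late in complex I assembly (GENCODE M21, GRCm38, minus strand, chr13:114287795-114388258), had the highest fold change of all members. Its levels were 50.0, 55.4 and 68.2 CPM in WT clones 1, 2 and 3 in media and 73.2, 94.8 and 122 CPM after stimulation. In KO clones 1A, 1B and 2 they were 52.6, 48.1 and 54.2 CPM in media and 102, 93.7 and 83.6 CPM after stimulation. Under TMM all 6 stimulated libraries lay above all 6 unstimulated ones, and with library totals they overlapped. The log2 fold change was 0.74 ± 0.18 in WT (SE, adjusted p = 0.0055, edgeR) and 0.85 ± 0.18 in KO clones (adjusted p = 0.0020). Under library totals it was 0.38 ± 0.18 in WT, which was no longer called (adjusted p = 0.089), and 0.47 ± 0.18 in KO clones (adjusted p = 0.038).

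Ndufs7, the core subunit that holds the last iron-sulfur cluster before ubiquinone, went the other way in every clone. Its levels fell from 58.6, 58.1 and 63.6 CPM to 48.8, 44.2 and 45.0 CPM in WT clones, and from 58.6, 64.7 and 54.8 CPM to 42.5, 34.9 and 39.6 CPM in KO clones. The stimulated and unstimulated libraries did not overlap. The log2 fold change was -0.39 ± 0.10 in WT (adjusted p = 0.010, edgeR) and -0.61 ± 0.10 in KO clones (adjusted p = 5.8e-04), and -0.74 ± 0.11 and -0.99 ± 0.11 under library totals. Ndufv2, a core subunit of the NADH-binding module, was at 101, 114 and 138 CPM in WT media and 101, 97.9 and 105 CPM after stimulation (-0.22 ± 0.12, adjusted p = 0.15). In KO clones it fell from 121, 129 and 109 CPM to 96.0, 94.1 and 84.0 CPM (-0.39 ± 0.12, adjusted p = 0.017), with no overlap. Under library totals Ndufv2 was called lower in both genotypes (-0.58 ± 0.13 and -0.77 ± 0.13).

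Among the other accessory genes, Ndufa2 was called higher under TMM in both genotypes (0.46 ± 0.15 and 0.44 ± 0.15; 0.10 ± 0.14 and 0.06 ± 0.14 under library totals, not called), from 55.1 to 79.6 CPM over the unstimulated libraries to 77.9 to 110 CPM over the stimulated ones, which overlapped between clones, with the stimulated library higher in 6 of 6 clones under TMM. Ndufs5 had low counts, with 3.65 to 6.09 CPM in media and 5.77 to 7.79 CPM after stimulation. It was called in KO clones (0.53 ± 0.18, adjusted p = 0.031) and not in WT clones (0.40 ± 0.18, adjusted p = 0.094), where the clone block called it (adjusted p = 0.041; edgeR). Under library totals Ndufs5 was called in neither (0.04 ± 0.19 and 0.15 ± 0.19). Ndufb3, a subunit of the membrane arm, fell in WT clones from 44.8, 48.6 and 49.4 CPM to 34.9, 29.1 and 39.5 CPM (-0.47 ± 0.12, adjusted p = 0.0088). The KO clones had 36.1, 36.8 and 38.8 CPM in media and 37.7, 31.3 and 33.2 CPM after stimulation (-0.13 ± 0.12, adjusted p = 0.38), and the difference between the responses was not called. Under library totals Ndufb3 was called lower in both genotypes (-0.82 ± 0.12 and -0.51 ± 0.12). Under TMM Ndufb2, Ndufa3 and Ndufc1 were called higher in WT clones, and Ndufa1 and Ndufc1 in KO clones; the clone block called Ndufa1 in WT clones as well (adjusted p = 0.020, edgeR). Under library totals none of these calls remained, Ndufa3 and Ndufc1 were at -0.10 and -0.06 in WT clones, and Ndufa3 was called lower in KO clones (-0.30 ± 0.10). Ndufb6 was called higher in both under TMM (0.06 and 0.01 under library totals, not called), but 31.6% of its 50-base stretches also occur in another gene's transcript and its exons overlap those of Smim27, so its counts are uncertain.

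In complex III 3 of 8 genes were called higher and none lower in both genotypes (4 and 3 genes had an unadjusted p under 0.05), with medians of 0.28 and 0.22. Of all genes 23.8% were called higher in WT and 26.7% in KO clones. The 3 were Uqcrfs1, the Rieske iron-sulfur protein (0.46 ± 0.12 and 0.47 ± 0.12), Uqcrq (0.32 ± 0.09 and 0.36 ± 0.09) and Uqcrb (0.56 ± 0.15 and 0.62 ± 0.15), a small subunit near the ubiquinone site. Uqcrb was at 21.8, 18.8 and 24.9 CPM in WT media and 26.1, 32.6 and 37.7 CPM after stimulation. The KO clones had 21.3, 20.8 and 24.0 CPM in media and 36.7, 31.0 and 34.1 CPM after stimulation. Under TMM all stimulated libraries were above all unstimulated ones, and with library totals they overlapped. Uqcrb also shares 43.4% of the 50-base stretches of its transcripts with other genes, mostly pseudogenes. Uqcrc1 and Uqcrc2, the large core proteins that do not carry electrons, were not called in either genotype (fold changes of 0.02 to 0.11). Under library totals Uqcrq was at -0.04 and -0.02 and Uqcrb at 0.20 and 0.24, none of the 8 was called higher, and 1 in WT and 2 in KO clones were called lower.

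Complex IV had the highest median in WT and in KO clones, 0.31 and 0.33, or 0.32 and 0.34 above all genes. The same 6 of its 12 genes, Cox7a2, Cox7b, Cox4i1, Cox6b1, Cox5a and Cox6a1, were called higher in both genotypes under TMM. None was called lower. The background was 23.8% of all genes called higher and 23.6% lower in WT and 26.7% and 27.6% in KO clones. In each genotype 8 of the 12 had an unadjusted p under 0.05, all of them higher in WT clones. In KO clones they included Cox7a2l, which was lower (-0.42, unadjusted p = 0.041, edgeR), and the rest were higher. The share of all genes under this unadjusted threshold is not given here. Under library totals 1 of the 12 genes was higher and 0 lower in WT and 1 higher and 2 lower in KO clones. Their median was -0.05 in both. Cox7a2, the widely expressed form of subunit 7a (chr9:79755361-79759878), was at 121, 127 and 142 CPM in WT media and 181, 199 and 220 CPM after stimulation. In KO clones it was at 130, 120 and 118 CPM in media and 203, 188 and 187 CPM after stimulation. The groups did not overlap, and the fold change was 0.62 ± 0.10 in WT (adjusted p = 4.6e-04, edgeR) and 0.65 ± 0.10 in KO clones (adjusted p = 2.7e-04). It kept its call under library totals, at 0.26 ± 0.10 (adjusted p = 0.046) and 0.27 ± 0.10 (adjusted p = 0.039).

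Its isoforms did not share the higher call. Cox7a1, the form known from heart and muscle, was at 1.80 to 5.27 CPM in all libraries, and its fold changes of 0.13 ± 0.37 and -0.74 ± 0.39 were not called under TMM without the clone block. The KO value was called lower with the block (-0.72, adjusted p = 0.030) and under library totals (-1.11 ± 0.38, adjusted p = 0.026; edgeR). Cox7a2l, a relative known from respiratory supercomplexes, was at 60.8, 99.1 and 69.8 CPM in WT media and 74.0, 79.3 and 66.2 CPM after stimulation (-0.06 ± 0.18). In KO clones it was at 73.6, 90.5 and 96.5 CPM in media and 60.2, 59.2 and 75.3 CPM after stimulation, a fold change of -0.42 ± 0.18 that missed the threshold under TMM (adjusted p = 0.070) and passed it with the clone block (adjusted p = 0.011) and under library totals (-0.80 ± 0.17, adjusted p = 0.0018). Cox4i1, the widely expressed form of subunit 4, rose from 350, 425 and 377 CPM to 458, 575 and 538 CPM in WT clones and from 401, 368 and 419 CPM to 541, 523 and 555 CPM in KO clones. Its fold changes were 0.45 ± 0.11 in both genotypes under TMM and 0.09 ± 0.11 and 0.07 ± 0.11 under library totals, where it was not called. Cox7b (0.47 ± 0.09 and 0.41 ± 0.09), Cox6b1 (0.37 ± 0.09 and 0.47 ± 0.09) and Cox6a1 (0.34 ± 0.08 and 0.35 ± 0.08) likewise rose in all 6 clones under TMM and lost their calls under library totals.

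By symbol Ndufa4 counts with complex I, but its protein is now placed in complex IV. It was at 156, 151 and 150 CPM in WT media and 195, 189 and 181 CPM after stimulation, and at 153, 141 and 154 CPM in KO media and 204, 192 and 182 CPM after stimulation. It was called higher in both (0.31 ± 0.08 and 0.37 ± 0.08) under TMM, and was at -0.05 and -0.01 under library totals. Moving it to complex IV left the medians of complex I at 0.10 and 0.07 and gave complex IV 0.31 and 0.35. AA467197 (Nmes1), which encodes an inducible relative of NDUFA4 and is no member, had 0 counts in all 6 unstimulated libraries. After stimulation it had 66, 125 and 333 counts in WT and 118, 147 and 297 counts in KO clones, which is at least 238-fold and 258-fold higher when a group without counts is set to a floor of 3 counts in sum (counting error only). With library totals the bounds were 185-fold and 199-fold. Per kb of exon it reached 3.55% to 20.1% of the level of Ndufa4 in the stimulated WT libraries and 6.79% to 20.5% in the KO libraries.

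**Figure D2:**
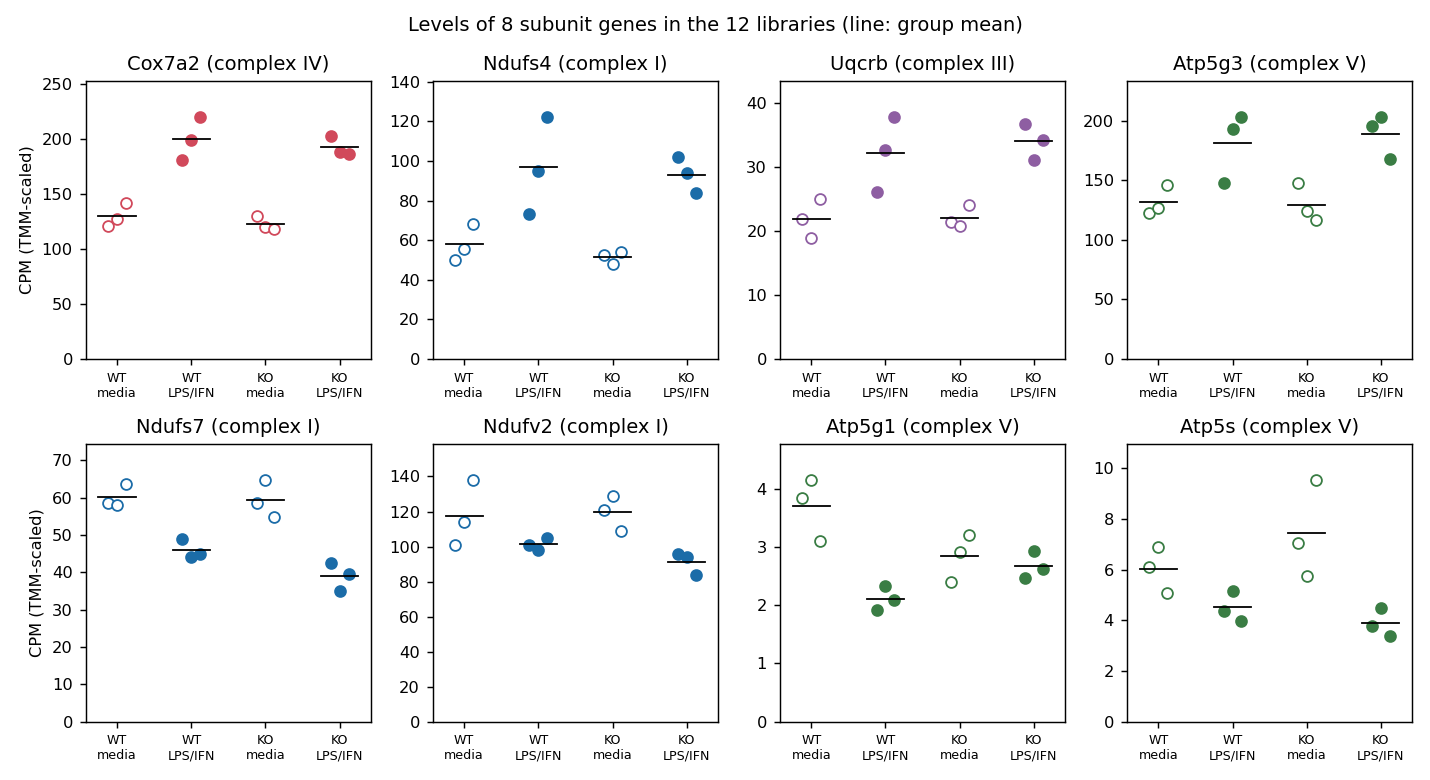
CPM after TMM scaling (y axis, from 0) of 8 subunit genes in the 12 libraries, with open points for media, filled points for LPS/IFN-gamma and a line at each group's mean. Cox7a2, Ndufs4 and Uqcrb show no overlap between stimulated and unstimulated libraries, Ndufs7 falls in both genotypes, and Atp5g1 is lower after stimulation in WT clones at levels of 1.92 to 4.15 CPM.

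Complex V lay between the others, with 5 of 16 tested genes higher and 1 lower in each genotype and medians of 0.19 and 0.20. Of all genes 23.8% were called higher and 23.6% lower in WT and 26.7% and 27.6% in KO clones. Atp5b, the catalytic subunit of the F1 head, rose from 1410, 1320 and 1690 CPM to 1870, 1810 and 2310 CPM in WT (0.44 ± 0.14, adjusted p = 0.028) and from 1480, 1470 and 1200 CPM to 2090, 2040 and 1810 CPM in KO clones (0.52 ± 0.14, adjusted p = 0.011). Its stimulated libraries were all above the unstimulated ones under TMM, and with library totals they overlapped. Its partner in the head, Atp5a1, was at 0.21 ± 0.12 and 0.16 ± 0.12 and was not called, except in WT clones with the clone block (adjusted p = 0.035, edgeR). Of the peripheral stalk, Atp5f1 was called higher in both genotypes (0.36 ± 0.12 and 0.45 ± 0.12) and Atp5j in KO clones (0.32 ± 0.12), and with the clone block also in WT clones (adjusted p = 0.021, edgeR). Among the small membrane subunits, Atp5mpl was higher in both (0.37 ± 0.08 and 0.25 ± 0.08) and Atp5k in WT clones (0.42 ± 0.11). Under library totals no complex V gene was called higher, 3 were called lower in WT and 2 in KO clones, and Atp5b was at 0.08 ± 0.15 and 0.14 ± 0.15.

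The ring of subunit c is encoded by 3 genes whose mature proteins are the same. Atp5g3 made up 97.8% to 99.2% of their summed level per kb of exon in every library, and it rose from 123, 127 and 146 CPM to 148, 193 and 203 CPM in WT clones and from 148, 124 and 117 CPM to 196, 203 and 168 CPM in KO clones (0.46 ± 0.14 and 0.54 ± 0.14). The unstimulated library of KO clone 1A equalled the lowest stimulated WT library at 148 CPM. Within each genotype the groups did not overlap under TMM, but they did with library totals. Atp5g1 fell in WT clones from 3.84, 4.15 and 3.11 CPM to 1.92, 2.33 and 2.09 CPM (-0.80 ± 0.21, adjusted p = 0.0097, edgeR; 0.064 without WT clone 1 and 0.00082 to 0.038 under the other alternatives). The KO clones had 2.40, 2.91 and 3.21 CPM in media and 2.46, 2.93 and 2.63 CPM (-0.09 ± 0.21, adjusted p = 0.76). The difference between these responses was 0.72 ± 0.30 and was not called (adjusted p = 0.95, edgeR; 0.39 to 1 over the alternatives). Atp5g2 stayed at 0.307 to 0.871 CPM and was not called.

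Atp5s encodes coupling factor B, which is not a structural subunit of the synthase. It was at 6.09, 6.89 and 5.10 CPM in WT media and 4.38, 5.17 and 3.99 CPM after stimulation (-0.42 ± 0.23, adjusted p = 0.16). In KO clones it fell from 7.05, 5.75 and 9.54 CPM to 3.79, 4.50 and 3.39 CPM (-0.93 ± 0.23, adjusted p = 0.0056), with no overlap. Under library totals it was called lower in both genotypes.

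The order of the complexes was seen in single clones. The complex IV median exceeded the complex I median in all 6 clones, by 0.18 to 0.24 in WT and 0.21 to 0.27 in KO clones over both scalings. Relative to all genes, complex I lay between 0.03 and 0.15, complex IV between 0.30 and 0.38, complex III between 0.22 and 0.36 and complex V between 0.18 and 0.34 under TMM. Complexes III, IV and V overlapped across clones, and complex III was the highest in WT clone 3. These are medians over genes of the same libraries, described without a test.

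**Figure D3:**
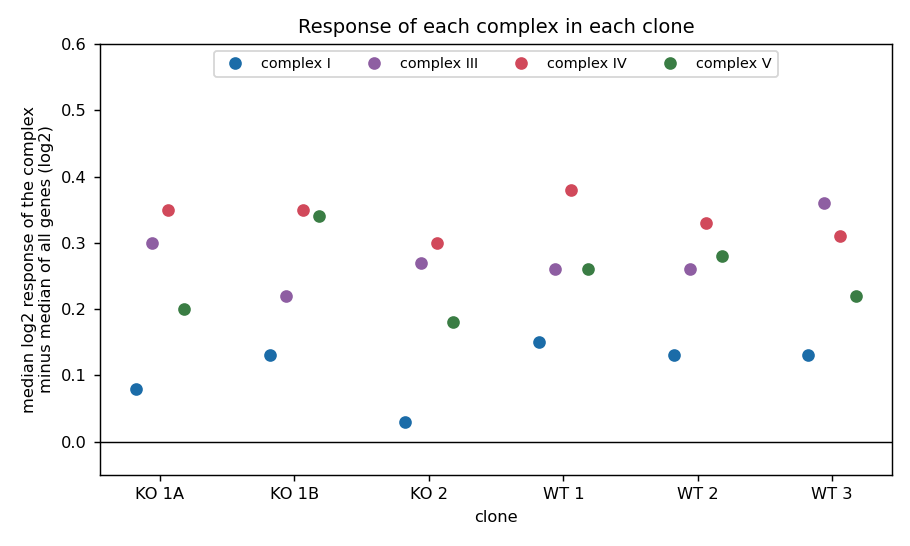
Median log2 response of each complex minus the median of all genes (y axis, TMM scaling) in each of the 6 clones (x axis), 1 stimulated against 1 unstimulated library a clone. Complex I lies lowest in every clone (0.03 to 0.15), and complexes III, IV and V overlap between 0.18 and 0.38.

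The split of the members' counts among the complexes needs no scaling between libraries. Complex I took 29.9% ± 0.59 of them in WT media (SD, n = 3) and 27.0% ± 0.49 after stimulation, and 30.2% ± 0.80 and 26.6% ± 0.074 in KO clones. Its 6 unstimulated libraries, at 29.4% to 31.1%, did not overlap with the 6 stimulated ones, at 26.5% to 27.3%. Complex IV rose from 16.2% ± 1.3 to 17.7% ± 1.1 in WT and from 16.0% ± 0.91 to 17.5% ± 0.80 in KO clones, with overlap between clones and a rise within each of the 6. Complex V was at 43.7% ± 1.9 and 45.4% ± 1.5 in WT and 43.5% ± 1.8 and 45.9% ± 1.1 in KO clones, and complex III near 10% in all groups (9.64% to 10.5%). Counts weigh the most abundant genes. With every gene weighted alike, complex I was lower and complex IV higher relative to the members' mean in both genotypes, while complex III, lower by counts, was higher.

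**Figure D4:**
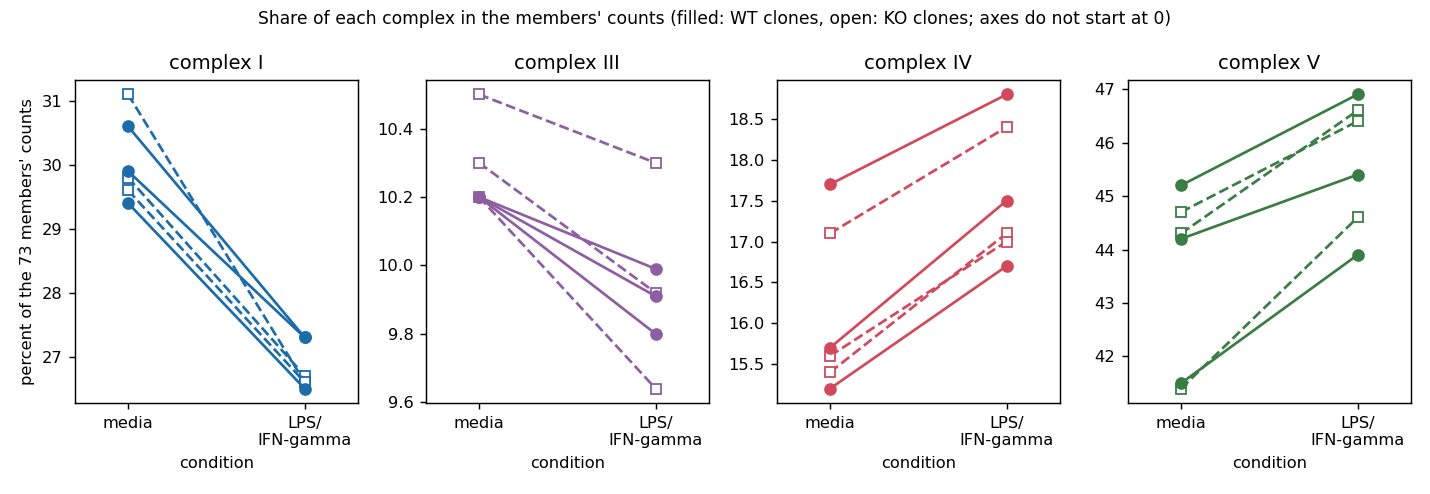
Percent of the members' counts taken by each complex (y axis, not starting at 0) in media and after LPS/IFN-gamma (x axis), with a line for each clone, filled points for WT and open squares for KO. Complex I falls from between 29.4% and 31.1% to between 26.5% and 27.3%, and complexes IV and V rise in every clone.

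Levels among members, taken as CPM per kb of exon in WT media, spread widely within each complex. In complex I the median was 40.5 and the lowest level that of Ndufb2, an accessory subunit (5.22 ± 0.543, SD, n = 3). Complex III ran from the hinge protein gene Uqcrh (143 ± 24.8) to Uqcrb (24.9 ± 3.48), complex IV from Cox6b1 (301 ± 25.8) to Cox7c (6.07 ± 0.719) and complex V from Atp5a1 (367 ± 47.2) to Atp5l (0.0651 ± 0.0175). The ends depend on the length used: with the principal transcript as length, Cox4i1 and Atp5b were the highest of complexes IV and V at 502 and 769 CPM per kb. Several of the lowest members share sequence with other genes, and reads that match several genes may have been left out of the counts. In Atp5l 84.8% of the 50-base stretches occur in 14 other genes, 12 of them pseudogenes, in Atp5g2 38.3%, in Cox7c 23.0% and in Ndufs5 21.7%. Cox7a1 and Atp5s, at 3.15 and 5.47 CPM over the 12 libraries, share none.

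Between genotypes no member was called. In media none of the 72 passed (edgeR, 2 with an unadjusted p under 0.05; DESeq2 also called none), where 1.21% of all genes were called (0.352% higher, 0.858% lower), and their log2 differences (KO minus WT) ran from -0.38 to 0.30. After stimulation edgeR called none (5 with an unadjusted p under 0.05), against 4.64% of all genes (1.13% higher, 3.51% lower), with differences of -0.80 to 0.34, and DESeq2 called 1, Cox8a. No member was called in the difference between the responses (1 with an unadjusted p under 0.05 in edgeR, 0 in DESeq2), where edgeR called 0% of all genes; with the clone block it called 0.327% of them (0.164% in each direction) and again no member (3 with an unadjusted p under 0.05). Library totals and the members' totals called no member in these comparisons either. Their backgrounds in media were 1.07% (0.360% higher, 0.711% lower) and 0.719% (0.286% higher, 0.433% lower), and after stimulation 4.49% (1.34% higher, 3.15% lower) and 2.56% (0.908% higher, 1.65% lower). The complex medians of these comparisons lay within 0.07 of 0 under TMM. Cox8a, subunit 8 of complex IV, was at 90.8, 100 and 107 CPM in WT and 85.0, 85.7 and 69.5 CPM in KO clones in media, and at 109, 126 and 124 CPM in WT and 97.2, 90.9 and 84.7 CPM in KO clones after stimulation. The KO libraries lay below the WT libraries in both conditions. The difference was -0.31 ± 0.11 in media (adjusted p = 0.22, edgeR) and -0.40 ± 0.11 after stimulation (adjusted p = 0.068, edgeR), and DESeq2 gave adjusted p = 0.021 for the latter. Over the other alternatives the adjusted p after stimulation ran from 0.066 to 0.35.

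**Figure D5:**
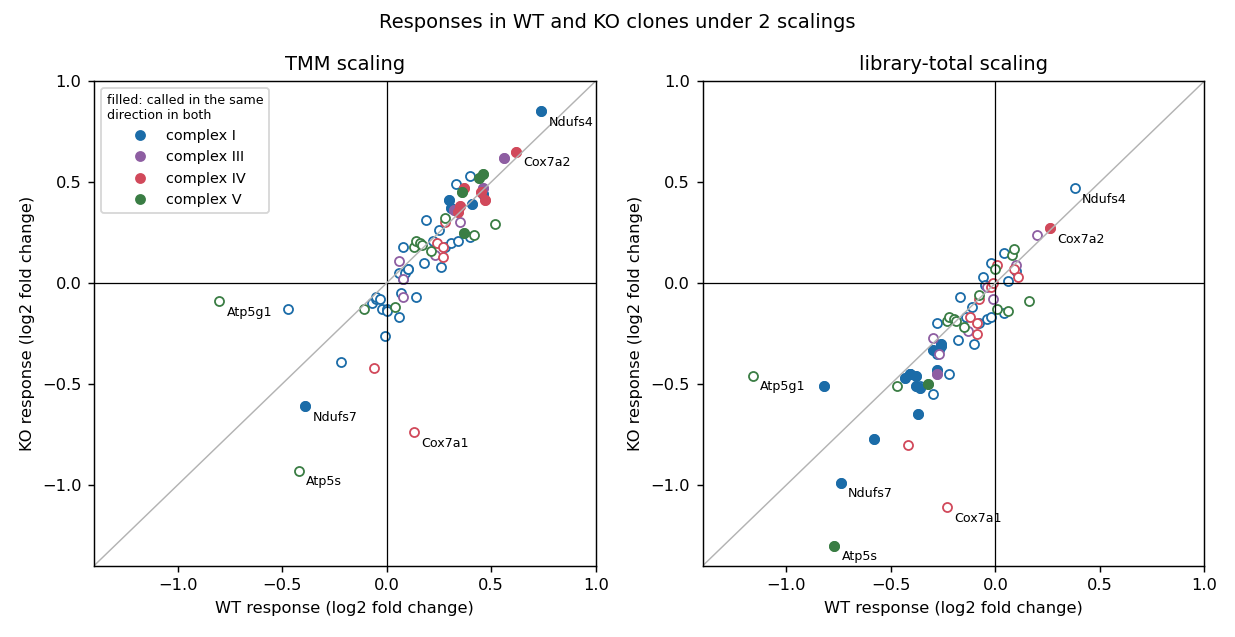
Log2 fold change in WT clones (x axis) against KO clones (y axis) for the 72 tested genes under TMM (left) and library-total scaling (right), with filled points for genes called in the same direction in both genotypes and a diagonal of equal responses. The cloud keeps its shape and moves down the diagonal by the shift between the scalings, 0.36 in WT and 0.38 in KO clones. In both genotypes 18 genes are called higher and 1 lower on the left, and 1 higher and 17 lower on the right.

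The other genes of the respiratory chain were read from lists. Of 13 mitochondrially encoded subunits 7 were measured. Under TMM edgeR called none (library totals called 2 lower in WT and 3 in KO clones), with medians of -0.31 and -0.26. The most abundant of them, mt-Co1 of complex IV, did not follow the median. Its mean went from 5660 ± 385 to 6470 ± 762 CPM in WT and from 5390 ± 746 to 5690 ± 408 CPM in KO clones (SD). None of the 4 subunits of complex II, which feeds electrons from succinate, was called under TMM (2 and 3 lower under library totals), with medians of -0.06 and -0.07. Of 16 measured complex I assembly factors, 1 was higher and 5 lower in WT and 2 higher and 7 lower in KO clones under TMM, with medians of -0.22 and -0.30, where 23.8% and 23.6% of all genes were called higher and lower in WT and 26.7% and 27.6% in KO clones. Under library totals 0 were higher and 12 lower in WT and 0 higher and 11 lower in KO clones, against 13.0% and 42.8% and 14.7% and 45.1% of all genes. These shares of all genes are the background of the other lists in this paragraph as well. The fold changes that follow are under TMM. Ndufaf7, a methyltransferase, was at -0.96 ± 0.15 and -1.4 ± 0.16, and Tmem186 at -0.76 ± 0.12 and -0.68 ± 0.12. Complex III assembly had 1 higher and 3 lower of 6 in both genotypes (1 and 4 under library totals), with the LYR-motif factor Lyrm7 at -1.06 ± 0.26 and -1.62 ± 0.27, Bcs1l, which inserts the Rieske protein, at -0.84 ± 0.17 and -0.74 ± 0.17, and Ttc19 at 1.02 ± 0.15 and 0.90 ± 0.15. Complex IV assembly had 3 higher and 4 lower of 22 in WT and 5 and 5 in KO clones under TMM, and 3 higher and 10 lower in WT and 3 and 11 in KO clones under library totals. Its highest members were Coa5 (1.72 ± 0.09 and 1.34 ± 0.09), the copper chaperones Cox17 (1.16 ± 0.11 and 1.35 ± 0.11) and Sco1 (1.39 ± 0.22 and 1.12 ± 0.22), all 3 called higher under library totals too. Of 5 complex V factors 1 was lower in WT and 2 in KO clones (2 and 4 under library totals), among them Atpaf2 (-0.50 ± 0.12 and -0.41 ± 0.12).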

How the data were processed

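RNA-seq counts of 12 libraries in 4 groups of 3 were used. The authors deposited 1 table of whole-number counts per Ensembl gene. No source used here names the aligner, the counter or its strand setting. The submitters' processing notes name the builds mm10 and GRCm38 and the tool DESeq2. GENCODE M21 named 12305 of 12483 IDs and gave biotypes, exon lengths and overlaps; 12 genes had counts equal to another gene's.

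edgeR 4.0.16 (R 4.3.3) was fitted to all 12 libraries with TMM factors, filterByExpr (12231 genes kept), 1 mean per group and a robust quasi-likelihood test (8 residual degrees of freedom). A gene was called at an adjusted p under 0.05 over all genes; SE is the log2 fold change over the root of F. P-values of this fit rest on the spread between the libraries of a group, each from another clone, and do not use the pairing by clone. The common coefficient of variation over all genes was 23.6%. KO 1A and 1B were counted as separate clones, which the labels do not settle. Alternatives were RLE factors, library totals, the members' totals as library size, no filter, DESeq2 1.42.0, clone as replicate block, KO 1A and 1B summed, each clone left out, a test against a fold of 1.2, and library totals with the block (added after seeing the data). The labels pair the libraries by clone. Deviations of a clone's libraries correlated at 0.62 to 0.70 in WT and 0.29 to 0.51 in KO clones. The highest correlation with another clone was -0.37 to -0.11 for WT clones and -0.35 for KO 2. For KO 1A it was 0.27, beside 0.32 within the clone, and for KO 1B 0.18, beside 0.29. KO 1A and 1B may thus not be independent, and the KO spread may be understated.

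Shared stretches are the 50-base words of a gene's transcripts found in another gene's. Named members were the 5 highest and 5 lowest called in each response, the ends of the levels and genes with isoforms; Ndufa1, Ndufa3, Ndufb2, Ndufb6, Ndufc1, Uqcrfs1, Uqcrq, Uqcrc1, Uqcrc2, Cox5a, Atp5b, Atp5f1, Atp5j, Atp5k and Atp5mpl and genes of the related lists were named after their values were seen. The members, lists and tests were chosen with earlier results of these data known. Scripts were tested on simulated counts. The values of 1 member are not reported singly here.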

Additional observations from a re-analysis of the deposited data

How the results depend on the processing

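RLE factors and no low-count filter changed none of the named calls. The count of members higher in WT clones, 21 under TMM, was 1 with library totals, 2 with the members' totals as library size, 34 with clone as replicate block, 4 in a test against a fold of 1.2 and 2 with library totals and the block; leaving out a clone gave 8 to 19. The count of lower ones, 3, was 18, 8, 3, 1 and 30 in the same order, and 2 to 3 without a clone. In KO clones 21 higher became 2, 4, 30, 9 and 2, and 11 with 1A and 1B summed, and leaving out a clone gave 8 to 23; 3 lower became 23, 15, 6, 2 and 31, and 1 to 4 without a clone. The share of all genes called is not given here for the fold of 1.2, library totals with the block, summed 1A and 1B or left-out clones. The members' median above all genes ran from 0.22 to 0.25 in WT clones without 1 clone. Cox6a1 turned to -0.02 in both genotypes under library totals, and to -0.02 and -0.03 with the block added; Ndufa4 turned to -0.05 and -0.01 under both; Cox8a, not called under TMM, turned to -0.09 and -0.20 under library totals and to -0.19 in KO clones with the block added. Of other genes called higher under TMM, library totals put Uqcrq at -0.04 and -0.02, Ndufa3, Ndufc1 and Cox5a in WT clones at -0.10, -0.06 and -0.01, and Atp5j and Atp5mpl in KO clones at -0.06 and -0.13. Under TMM the clone block added calls for Ndufs5, Ndufa1, Cox8a (adjusted p = 0.013, edgeR), Atp5a1 and Atp5j in WT and for Cox7a1 and Cox7a2l in KO clones, and ended none among the named members. These reversals and lost calls follow the shift of 0.36 and 0.38 between the scalings. DESeq2 called 1 member lower in KO clones after stimulation. Weighting genes alike, the log2 share ratio was -0.05 for complex I in both genotypes (-0.15 and -0.18 by counts), 0.08 and 0.10 for complex III (-0.04 and -0.05), 0.07 for complex IV in KO clones (0.13) and -0.02 and 0.01 for complex V (0.06 and 0.08). Fold changes of Atp5g1, Atp5g2 and Cox7a1 rest on few counts, and Atp5l could not be tested at this depth.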

Other observations

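Around the respiratory chain, several named genes moved more than any tested subunit. In the list of cytochrome c and ubiquinone synthesis, 3 of 15 genes were higher and 3 lower in WT and 4 higher and 3 lower in KO clones under TMM, where 23.8% and 23.6% of all genes were called in WT and 26.7% and 27.6% in KO clones. Under library totals 1 was higher and 3 lower in WT and 1 higher and 7 lower in KO clones, against 13.0% and 42.8% and 14.7% and 45.1% of all genes. Cycs, the gene of cytochrome c itself, was higher at 0.60 ± 0.11 and 0.41 ± 0.11, and Pdss1, which makes the ubiquinone side chain, at 0.73 ± 0.18 and 0.70 ± 0.18, both under TMM and both not called under library totals. The paralogs Coq10a and Coq10b, which help ubiquinone work in the membrane, parted: Coq10b was at 1.90 ± 0.23 and 1.97 ± 0.24 and Coq10a at -1.10 ± 0.20 and -1.21 ± 0.21, and both kept these directions and calls under library totals.

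Among 17 measured regulators of mitochondrial biogenesis, 2 were higher and 4 lower in WT and 3 higher and 4 lower in KO clones under TMM. Of all genes 23.8% and 23.6% were called in these directions in WT and 26.7% and 27.6% in KO clones. Under library totals 0 were higher and 8 lower in WT and 1 higher and 8 lower in KO clones, against 13.0% and 42.8% and 14.7% and 45.1% of all genes. The lower calls were near the background on both scales. The mitochondrial RNA polymerase gene Polrmt (-0.82 ± 0.12 and -0.58 ± 0.12), the helicase gene Twnk (-1.07 ± 0.14 and -1.05 ± 0.14) and the rRNA methylase gene Tfb1m (-0.46 ± 0.14 and -0.65 ± 0.14) were lower in both genotypes. Ppargc1b, a coactivator of oxidative metabolism, went from 79, 91 and 85 counts to 18, 24 and 11 in WT clones and from 55, 62 and 6 to 5, 10 and 3 in KO clones 1A, 1B and 2. Hif1a, the hypoxia factor, was higher under TMM (0.71 ± 0.18 and 0.49 ± 0.18) and not called under library totals (0.35 ± 0.17 and 0.11 ± 0.17). Of 8 carriers and pores, Vdac2 (0.63 ± 0.10 and 0.69 ± 0.10), Vdac3 and the phosphate carrier gene Slc25a3 were higher and Nnt was lower (-0.43 ± 0.13 and -0.54 ± 0.13) in both genotypes under TMM. Under library totals Vdac2 and Nnt kept these calls, and Vdac3 and Slc25a3 did not.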
